A study of Homo sapiens with 3 samples.

Results

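LHX5, LHX9, OTX1, EMX2, SP8, DMRTA2 and VAX1 are 7 transcription factor genes of the developing forebrain, taken here by symbol from the single-cell count matrices of H9, an established line of human embryonic stem cells. All 7 were found among 31113 gene symbols. H9 cells had been grown in mTeSR, a medium for pluripotent cells, and treated with the STEMdiff SMADi Neural Induction Kit, which blocks SMAD signalling to direct such cells to neural progenitors. RNA was captured by inDrop with the TruDrop protocol, in which each cell gets a barcode and each captured molecule a unique molecular identifier (UMI). There were 3 libraries, labelled day 0, day 2 and day 6, with 1 library for each label and 1 cell line, so that differences between them have no check against replicate cultures. Their titles also carry the letters A, B and A, which the sources used here do not explain.

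These genes divide the front of the neural plate into regions. LHX5 and LHX9 encode LIM-homeodomain factors: in vertebrate embryos LHX5 marks the anterior neural plate and later the hypothalamus and cortical hem derivatives, and LHX9 marks thalamus and pallium. OTX1 and EMX2 are homologs of the fly head-gap genes orthodenticle and empty spiracles; with SP8, a zinc-finger factor of the frontal cortex and olfactory bulb, and DMRTA2, a DM-domain factor of the medial pallium, they take part in setting areas of the cerebral cortex. VAX1 is a homeodomain factor of the optic stalk and basal forebrain.

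Cells were kept from 1000 UMIs and 500 genes upwards, with a mitochondrial share of up to 25%: 2290, 2419 and 4180 of them under the labels day 0, 2 and 6, with medians of 8770, 3814 and 4429 UMIs. Levels are counts per 1000000 UMIs (CPM), of the 28341741, 20626135 and 41268018 UMIs summed over these cells, and 3 UMIs correspond to 0.106, 0.145 and 0.0727 CPM. All intervals are 95% intervals for counting error only. The pluripotency gene POU5F1 stood at 2.22, 1229 and 268 CPM and the neural progenitor gene PAX6 at 175.5, 6.64 and 27.9 CPM in label order. The library labelled day 0, whose title reads 0 day NPCdiff, thus had the least POU5F1 and the most PAX6. TDGF1, another pluripotency gene, had 0 UMIs there. Not all markers went this way. Of 9 listed pluripotency markers, 7 were at least 2-fold higher labelled day 2 than day 0. Labelled day 6 against day 0, 6 were higher and NANOG was lower. SOX2, also a listed neural progenitor marker, and LIN28A were past 2-fold in neither comparison. Of 8 neural progenitor markers that reached 10 CPM, 6 were at most 0.5 times labelled day 2 and 5 labelled day 6, against day 0, and 0 were higher. The libraries are therefore called by their labels throughout, and no order in time is read from them. Of the kept cells, 2, 40 and 154 fell in clusters made up mostly of another library, in a clustering made without the 7 genes and their antisense partners. Kept cells shared 38 barcodes between the libraries labelled day 0 and day 2, 82 between day 0 and day 6, and 72 between day 2 and day 6. Lower levels in a library can come from fewer cells with the transcript or from less of it per cell, which the summed level cannot tell apart.

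The plot of summed levels shows the pattern of all 7 genes. LHX5 was high in the libraries labelled day 0 and day 6, OTX1 and SP8 were high in the library labelled day 0, and the other genes stayed under 5 CPM in every library.

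**Figure D1:**
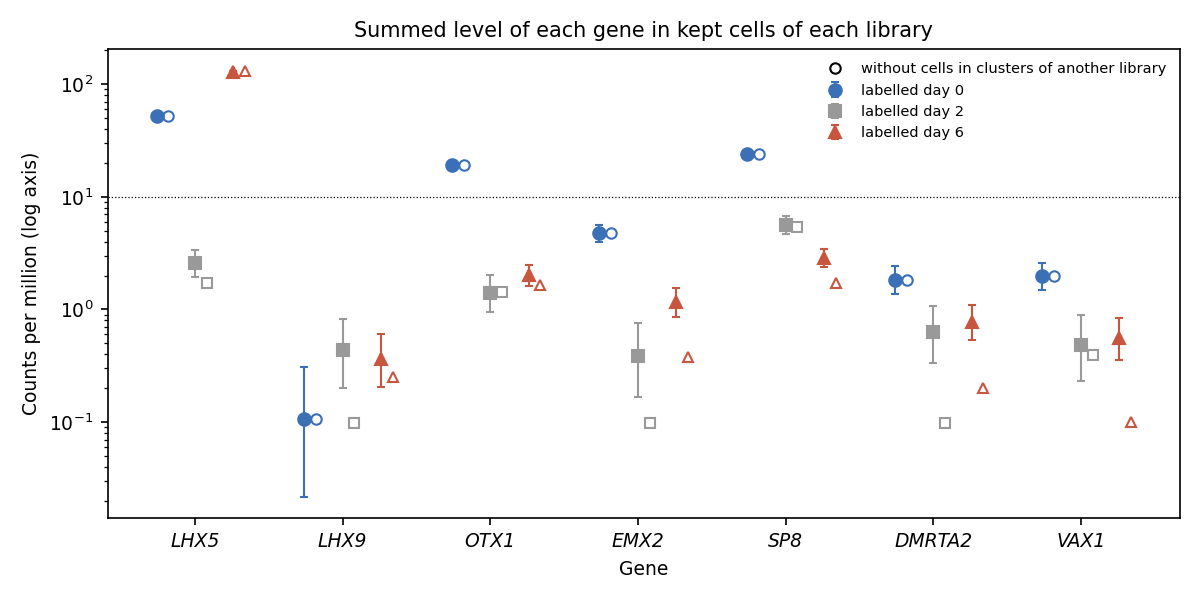
Summed level of each gene in CPM (log axis) in the libraries labelled day 0 (circles), day 2 (squares) and day 6 (triangles); filled symbols are all kept cells with 95% Poisson intervals, open symbols leave out cells in clusters mostly of another library, and the dotted line is 10 CPM. LHX5 was highest in the library labelled day 6 at 129 CPM, OTX1 and SP8 in that labelled day 0 at 19.2 and 24.0 CPM, and open symbols fall well below filled ones for EMX2, DMRTA2 and VAX1 in the library labelled day 6.

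LHX5 (ENSG00000089116.3; GENCODE 29 on hg38, chr12:113462034-113472280, minus strand) had 1481, 53 and 5307 UMIs under the labels day 0, 2 and 6. These gave 52.3 CPM (49.6 to 55.0), 2.57 CPM (1.92 to 3.36) and 129 CPM (125 to 132). The intervals of the 3 libraries did not overlap. Its level in the library labelled day 6 was 2.46 times that labelled day 0 (2.32 to 2.61) and 50.05 times that labelled day 2 (38.2 to 66.9). The library labelled day 0 exceeded that labelled day 2 by 20.3 times (15.5 to 27.3). Without the cells in clusters of another library the last 2 ratios were 75.8 and 30.5; 18 of the 53 LHX5 UMIs labelled day 2 lay in 40 such cells.

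LHX5 was detected in 815 of 2290 cells labelled day 0 (35.6%, 33.6 to 37.6) and in 1995 of 4180 labelled day 6 (47.7%, 46.2 to 49.3), but in 31 of 2419 labelled day 2 (1.28%, 0.872 to 1.81). Of the LHX5-positive cells labelled day 6, 871 had 1 UMI, 411 had 2 and 713 had 3 or more, with up to 21 in a cell. Those labelled day 0 numbered 463, 197 and 155, with up to 13 in a cell. After every cell was thinned to 1000 UMIs the shares were 4.72%, 0.207% and 12.8%.

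Free RNA in the droplets can place LHX5 in cells that do not make it. Barcodes under 1000 UMIs held LHX5 at 57.2 CPM labelled day 0 and 134 CPM labelled day 6, where the kept cells had 52.3 and 129 CPM. Of the kept cells labelled day 6, 53 fell in clusters of the library labelled day 2, whose own cells had LHX5 at 1.71 CPM. In these 53 cells it stood at 57.0 CPM (26.1 to 108) and was seen in 6 (11.3%, 4.27 to 23.0, median 2548 UMIs), against 130 CPM and 48.5% (46.9 to 50.02, median 4441 UMIs) in the cells labelled day 6 in clusters of their own library. After thinning these shares were 7.55% and 12.9%. The 57.0 CPM rests on 9 UMIs. A clustering that included the 7 genes gave 52 such cells with 5 LHX5 UMIs, or 31.7 CPM (10.3 to 74.0). The part of free RNA in the shares of cells was not tested for any of the 7 genes.

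OTX1 (ENSG00000115507.9; chr2:63050057-63057836, plus strand) had 543, 29 and 83 UMIs, or 19.2 CPM (17.6 to 20.8), 1.41 CPM (0.942 to 2.02) and 2.01 CPM (1.60 to 2.49). The library labelled day 0 was high and the other two were low. Its OTX1 level was 13.6 times that labelled day 2 (9.38 to 20.5) and 9.53 times that labelled day 6 (7.55 to 12.1). The ratio of labelled day 6 to day 2, 1.43 (0.927 to 2.27), had an interval that held 1. OTX1 was detected in 389 cells labelled day 0 (17.0%), 26 labelled day 2 (1.07%) and 63 labelled day 6 (1.51%). Its thinned shares were 2.66%, 0.331% and 0.215%.

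SP8 (ENSG00000164651.16; chr7:20782283-20786886, minus strand) had 679, 117 and 119 UMIs, or 24.0 CPM (22.2 to 25.8), 5.67 CPM (4.69 to 6.80) and 2.88 CPM (2.39 to 3.45). Like OTX1 it was highest in the library labelled day 0, at 4.22 times that labelled day 2 (3.47 to 5.18) and 8.31 times that labelled day 6 (6.83 to 10.2). Unlike OTX1 its level labelled day 6 was below that labelled day 2, at 0.508 times (0.391 to 0.662). That ratio was just short of the 0.5 used for a call. Without the cells in clusters of another library it was 0.317 (0.231 to 0.432), and 50 of the 119 SP8 UMIs labelled day 6 lay in 154 such cells. SP8 was detected in 467 cells labelled day 0 (20.4%), 97 labelled day 2 (4.01%) and 94 labelled day 6 (2.25%).

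OTX1 and SP8 had their highest level in the library labelled day 0, and their promoter letters are shown for that reason. EMX2, DMRTA2 and VAX1 were also highest there, at lower levels, and of these only DMRTA2 is printed. RefSeq windows of 250 bases before a RefSeq start (GRCh38.p14) were matched for 6 of the 7 genes. A RefSeq start can lie inside the GENCODE 29 span of the gene. The OTX1 stretch lies inside that span, which starts at 63050057, and so do the EMX2 window and the LHX9 windows. Printed is the part outside GENCODE 29 exons, 5′ to 3′ in the direction of the gene; capitals mark GGGCGG, the GC box of Sp-type zinc-finger factors, and CCAAT, each on either strand, so that CCGCCC and ATTGG are the same motifs read from the other strand.
SP8, chr7:20786887-20787136, minus strand: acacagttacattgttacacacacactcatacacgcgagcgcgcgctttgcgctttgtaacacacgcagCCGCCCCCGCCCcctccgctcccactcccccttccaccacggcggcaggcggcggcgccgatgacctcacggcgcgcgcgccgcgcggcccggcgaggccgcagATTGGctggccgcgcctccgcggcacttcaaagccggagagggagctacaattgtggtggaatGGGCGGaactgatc
OTX1, chr2:63050580-63050740, plus strand: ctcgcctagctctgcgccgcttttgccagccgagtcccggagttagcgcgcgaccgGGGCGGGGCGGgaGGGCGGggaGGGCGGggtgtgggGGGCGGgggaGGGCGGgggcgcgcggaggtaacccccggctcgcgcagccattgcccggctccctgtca
DMRTA2, chr1:50423501-50423608, minus strand: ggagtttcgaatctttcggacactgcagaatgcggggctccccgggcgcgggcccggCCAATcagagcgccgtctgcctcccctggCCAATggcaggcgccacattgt
The OTX1 stretch holds 6 GC boxes, 2 of them overlapping, and the SP8 window 3 GC boxes and 1 CCAAT box. DMRTA2, lower in level but also highest labelled day 0, has no GC box and 2 CCAAT boxes in the printed stretch. In their whole windows EMX2 has 2 GC boxes and 1 CCAAT box, VAX1 neither, and LHX9 2 GC boxes in 1 of its 2 windows. GGGCGG occurred in 42.6% of all 35114 such windows and CCAAT in 32.0%, so neither is rare. TAATTA, a core bound by many homeodomain factors, was found in 4.35% of windows and, among these genes, in the window of EMX2. A match is a description of the letters only.

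EMX2 (ENSG00000170370.11; chr10:117542444-117549546, plus strand) was low everywhere, with 135, 8 and 48 UMIs, or 4.76 CPM (3.99 to 5.64), 0.388 CPM (0.167 to 0.764) and 1.16 CPM (0.858 to 1.54). EMX2 was 12.3 times as high in the library labelled day 0 as in that labelled day 2 (6.06 to 29.03) and 4.10 times that labelled day 6 (2.93 to 5.82). Most of its UMIs outside the library labelled day 0 lay in cells of clusters of another library: 6 of 8 labelled day 2 and 33 of 48 labelled day 6. Without them the EMX2 ratio of labelled day 0 to day 6 was 12.7 (7.44 to 23.3). That to day 2 was 48.6 (13.2 to 406), against 2 UMIs. The share of cells with EMX2 was 5.07%, 0.289% and 0.789%.

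DMRTA2 (ENSG00000142700.11; chr1:50417550-50423500, minus strand) had 52, 13 and 32 UMIs, or 1.83 CPM (1.37 to 2.41), 0.630 CPM (0.336 to 1.08) and 0.775 CPM (0.530 to 1.09). The DMRTA2 ratio of labelled day 0 to day 6 was 2.37 (1.495 to 3.798), and 9.18 (4.33 to 22.4) without the cells in clusters of another library. That of labelled day 0 to day 2 was 2.91 (1.56 to 5.83), and 18.7 (4.93 to 159) without them. DMRTA2 was seen in 35 cells labelled day 0 (1.53%), 4 labelled day 2 (0.165%) and 17 labelled day 6 (0.407%).

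VAX1 (ENSG00000148704.12; chr10:117128521-117138301, minus strand) had 56, 10 and 23 UMIs, or 1.98 CPM (1.49 to 2.57), 0.485 CPM (0.232 to 0.892) and 0.557 CPM (0.353 to 0.836). The VAX1 level labelled day 0 was 4.07 times that labelled day 2 (2.06 to 8.96) and 3.55 times that labelled day 6 (2.15 to 6.04). Without the cells in clusters of another library the latter was 19.8 (7.31 to 75.1). Leaving them out also turned the VAX1 ratio of labelled day 6 to day 2 from 1.15 (0.526 to 2.71) to 0.255 (0.0562 to 0.952), which rests on 4 and 8 UMIs.

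LHX9 (ENSG00000143355.15; chr1:197911902-197935478, plus strand) was barely detected, with 3, 9 and 15 UMIs in 3, 3 and 12 cells. Of the 9 LHX9 UMIs labelled day 2, 7 came from 1 cell, which lay in a cluster of another library. The LHX9 ratio of labelled day 2 to day 0 was 4.12 (1.03 to 23.7) with that cell and its like, and 0.926 (0.0773 to 8.08) without them.

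The plot of shares sets detection as sequenced beside detection at equal depth. LHX5 was seen in 47.7% of cells labelled day 6 against 35.6% labelled day 0 as sequenced, and in 12.8% against 4.72% after thinning; the cells labelled day 0 were the deeper ones as sequenced. For SP8 the libraries labelled day 2 and day 6, at 4.01% and 2.25% as sequenced, stood at 0.372% and 0.383% after thinning. Those thinned shares rest on few cells, and the summed SP8 levels of these libraries were 5.67 and 2.88 CPM.

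**Figure D2:**
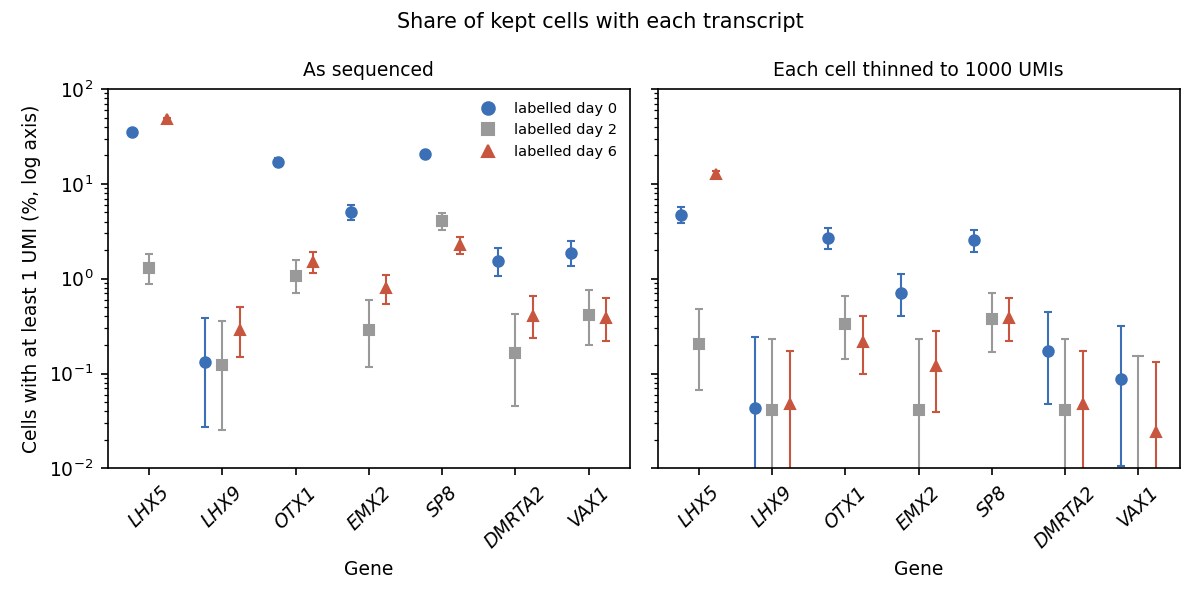
Share of kept cells with at least 1 UMI of each gene (percent, log axis) with 95% Clopper-Pearson intervals, as sequenced (left) and with every cell thinned to 1000 UMIs (right); symbols are the libraries as labelled. LHX5 stood at 35.6%, 1.28% and 47.7% on the left and at 4.72%, 0.207% and 12.8% on the right; VAX1 labelled day 2 had no cell after thinning and is drawn as its interval alone.

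Set against all genes, 3 of the 7 members could be called: LHX5, OTX1 and SP8 reached 10 CPM in at least 1 library, and EMX2, DMRTA2, VAX1 and LHX9 did not. A call here means at least 2-fold higher, or at most 0.5 times, in CPM, with no test. Labelled day 2 against day 0, 3 of 3 were lower, where 1060 of 10574 genes (10%) were lower, and 0 were higher, where 10.1% were higher. Labelled day 6 against day 2, LHX5 alone was higher, where 8.39% of genes were higher, and 0 were lower, where 6.25% were lower. Labelled day 6 against day 0, LHX5 was higher, where 10.8% of genes were, and OTX1 and SP8 were lower, where 6.06% were. The median log2 ratios of the 3 were -3.77, 0.52 and -3.05 in these comparisons, beside 0.01, 0.12 and 0.12 for all 10574 genes.

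Other factors of the eye field and anterior forebrain were also split between the libraries labelled day 0 and day 6. Of 20 listed, 11 reached 10 CPM, and of these 8 were lower and 2 higher labelled day 2 than day 0, with a median log2 ratio of -3.56. In the comparison of day 6 with day 2, 7 were higher and 0 lower. Against day 0, 5 were higher labelled day 6 (HESX1, FEZF1, ZIC2, ZIC5 and SOX21) and 5 lower (SIX3, RAX, LHX2, PAX6 and FEZF2). FEZF1, a zinc-finger repressor of the rostral forebrain, stood at 160, 29.4 and 424 CPM, and PAX6 at 175.5, 6.64 and 27.9 CPM.

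Close relatives of the 7 genes were mostly low. Only OTX2, LHX2 and DMRTA1 of 20 paralogs reached 10 CPM. OTX2, the paralog of OTX1 that is needed to form the anterior brain, stood at 86.1, 30.6 and 105 CPM and so was present in the library labelled day 6, where OTX1 was at 2.01 CPM. LHX2, a LIM-homeodomain factor of cortex and eye, stood at 82.4, 6.98 and 13.8 CPM. In 101 cells labelled day 6 in clusters mostly of the library labelled day 0, LHX2 stood at 351 CPM. The other 4079 cells labelled day 6 had it at 4.68 CPM (4.03 to 5.40). In 34 cells labelled day 2 in clusters of the library labelled day 0 it stood at 389 CPM. DMRTA1, a relative of DMRTA2, stood at 24.7, 4.36 and 1.89 CPM.

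Factors of neighbouring regions differed in how far they were present. Of 16 diencephalon and thalamus factors, 7 reached 10 CPM; labelled day 6 against day 0, 3 were higher (IRX2, FOXB1 and LMX1A) and 2 lower (NR2F1 and NR2F2). NR2F2, an orphan nuclear receptor, stood at 264, 1.36 and 8.70 CPM and IRX2 at 29.1, 75.4 and 190 CPM. Among 16 ventral and later telencephalon factors that were found, GLI3, a transducer of hedgehog signals, stood at 297, 48.5 and 120 CPM, and ETV1 was the other one above 10 CPM. Of 20 midbrain and hindbrain factors, 6, 4 and 6 had 0 UMIs in label order.

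Secreted patterning signals included antagonists of WNT. Of 21 listed, 9 reached 10 CPM; labelled day 2 against day 0, 6 were lower and 0 higher, and labelled day 6 against day 0, BMP4, SFRP2 and DKK1 were lower and 0 were higher. SFRP1, a secreted WNT inhibitor, stood at 715, 701 and 1292 CPM. BMP4 stood at 142, 5.58 and 3.22 CPM.

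By Euclidean distance between centred log2(CPM + 1) profiles over the 3 libraries, the gene most like LHX5 was SOX21, at 53.4, 2.52 and 127 CPM (distance 0.04). SOX21 is a SOX factor of neural progenitors. It was the only gene within a distance of 0.5. Next came LHX5-AS1, the antisense partner of LHX5, at 43.7, 1.45 and 56.4 CPM (distance 0.67), and ZEB2 (0.86). For OTX1, 31 genes lay within 0.5, and the nearest were DKK1, a secreted WNT antagonist at 11.2, 0.436 and 0.703 CPM, C9orf84 and RP11-120I21.2. For SP8, 35 genes lay within 0.5, led by MAMDC2, PDE4D and SAMD4A. With 3 libraries these profiles have few points, and the distances are descriptions.

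Both antisense partners overlap their gene in part. LHX5-AS1 shares 278 bases with LHX5, 70 of them exonic, and EMX2OS shares 2625 bases with EMX2, 255 exonic; in neither pair does the 3′ end of one gene lie in the other. The strand setting of the counting is not given in the sources used here, so reads in the shared bases cannot be told apart. EMX2OS stood at 6.32, 0.533 and 1.82 CPM, the same order of libraries as EMX2. Labelled day 6, 46 of its UMIs lay in 101 cells in clusters mostly of the library labelled day 0. The other 4079 cells labelled day 6 had EMX2OS at 0.722 CPM (0.483 to 1.04), an interval that held the 0.533 CPM labelled day 2.

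Co-detection was measured as cells with both transcripts, doublets and free RNA included, set against the number expected if the 2 were independent within each of 10 depth classes of a library. In the library labelled day 0, 480 of 2290 cells (21.0%) held at least 2 of the 7 transcripts, whereas 16 did labelled day 2 and 135 (3.23%) labelled day 6, at the unequal depths given above. OTX1 and SP8 were found together in 141 cells labelled day 0 where 106 were expected (1.33 times, 1.12 to 1.57). OTX1 and EMX2 were found together in 39 where 24.6 were expected (1.59 times, 1.13 to 2.17), and LHX5 and OTX1 in 217 where 185 were expected (1.17 times, 1.02 to 1.34). LHX5 and EMX2 had 71 against 55.0 (1.29 times, 1.01 to 1.63).

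For VAX1, 3 pairs could be counted, of which that with SP8 had 13 cells against 12.3 expected. OTX1 and VAX1 shared 5 cells labelled day 0 where 10.2 were expected (0.491 times, 0.160 to 1.15), and LHX5 and VAX1 shared 17 where 22.3 were expected (0.761 times, 0.443 to 1.22); both intervals held 1. In all, 18 pairs of members had at least 5 expected cells, 12 labelled day 0 and 6 labelled day 6. The intervals are not corrected for that number. Values are given above for some of these pairs only, and for none labelled day 6. Most pairs had under 1 expected cell once every cell was thinned to 1000 UMIs. Of the rest, 2 stayed within their interval, 2 moved out of it and 1, LHX5 and OTX1 labelled day 0, fell to the other side of 1. EMX2 and its antisense partner EMX2OS shared 27 cells labelled day 0 against 10.2 expected (2.65 times, 1.75 to 3.86).

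**Figure D3:**
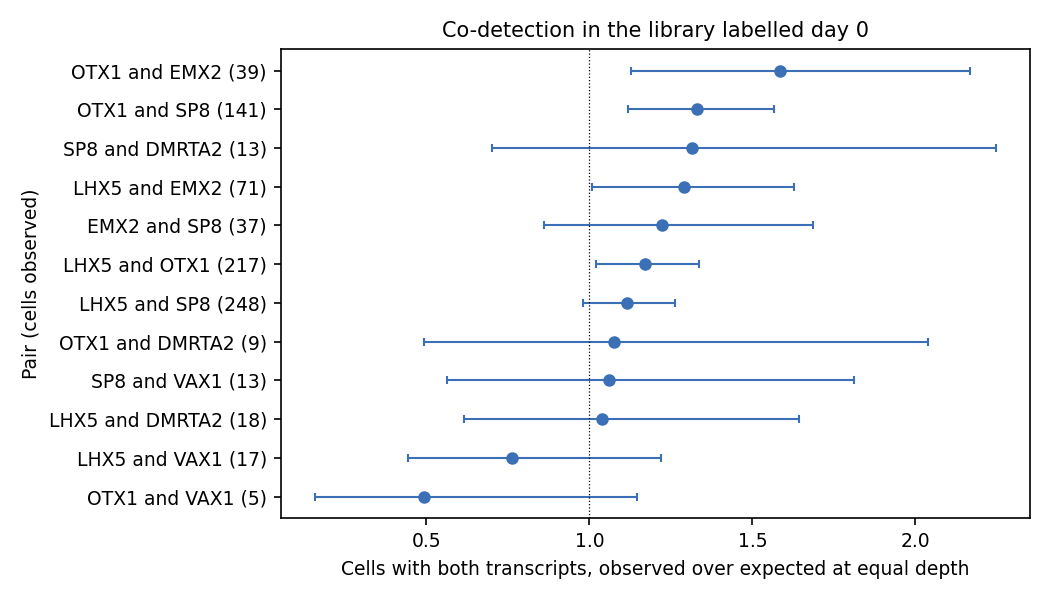
Cells of the library labelled day 0 in which both transcripts of a pair were seen, as the ratio of observed cells to cells expected within depth classes (x axis). Bars are 95% Poisson intervals. Each row is a pair of the 7 genes with at least 5 expected cells, with the observed number in brackets. OTX1 and EMX2 (1.59) and OTX1 and SP8 (1.33) lie highest among pairs whose interval leaves out 1, and OTX1 and VAX1 (0.491) lowest.

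Detection of LHX5 and of POU5F1 labelled day 6 was close to independent. LHX5 and POU5F1 shared 1643 cells where 1621 were expected (1.01 times, 0.965 to 1.06), and 82.4% of LHX5-positive cells also had POU5F1; doublets and free RNA were not removed, so this does not show that 1 cell makes both. In cells labelled day 6 in clusters of their own library, the 9 summed pluripotency markers came mostly from LIN28A (1848 CPM) and SOX2 (816 CPM). POU5F1 stood at 269 CPM there, and SOX2 was also listed as a neural progenitor marker. After thinning, the summed pluripotency markers of 533 LHX5-positive cells were 1.01 times those of the 3647 others (0.964 to 1.06). The summed eye field and anterior forebrain factors were 1.17 times as high (1.09 to 1.26), FEZF1 among them at 1.22 times (1.08 to 1.38) and OTX2 at 1.35 times (1.08 to 1.69), and the summed neuron markers 1.24 times (1.02 to 1.49). The LHX5-positive cells had a median of 5.83% mitochondrial UMIs against 8.61% in the others, and LHX5 stood at 158 CPM in cells under 5% mitochondrial UMIs and 124 CPM in the rest. The part of this in the result was not tested.

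For OTX1 in the library labelled day 0, the 61 positive cells after thinning had 1.41 times the summed eye field and anterior forebrain factors of the other 2229 (1.12 to 1.75). OTX1 stood at 30.1 CPM (22.6 to 39.1) in cells labelled day 0 under 5% mitochondrial UMIs and at 18.4 CPM (16.8 to 20.1) in the rest, and SP8 at 39.9 (31.3 to 50.2) and 22.9 CPM (21.1 to 24.8). The part of the mitochondrial share in these results was not tested. LHX5-positive cells labelled day 0 did not stand apart, at 0.934 times for the same sum (0.756 to 1.14).

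The low levels of EMX2, SP8, DMRTA2 and VAX1 in the library labelled day 6 rested to a large degree on few cells. Of its 4180 kept cells, 101 fell in clusters mostly of the library labelled day 0. They were 10.8% mitochondrial at the median, with a median of 7113 UMIs; 3 of them shared a barcode with another library and none had a doublet score above the 95th percentile of its library, from a caller that marked too few doublets to have worked. These 101 cells held 33 of the 48 EMX2 UMIs, 50 of 119 of SP8, 24 of 32 of DMRTA2, 19 of 23 of VAX1 and 17 of 83 of OTX1. At least 1 of these 5 transcripts was seen in 55 of the 101 cells (54.5%), against 130 of the other 4079 cells labelled day 6 (3.19%) and 819 of 2290 labelled day 0 (35.8%).

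Several of the 7 genes were higher in these 101 cells than in the cells labelled day 0. EMX2 stood in them at 30.2 CPM (20.8 to 42.5), 6.35 times the cells labelled day 0 in the same clusters (4.20 to 9.34). VAX1 stood at 17.4 CPM, 8.81 times (4.94 to 15.1), and DMRTA2 at 22.0 CPM, 11.98 times (7.06 to 19.8). For DMRTA2 1 cell gave 37.5% of the UMIs, and without it the ratio was 7.69 (4.02 to 13.9). SP8 at 45.8 CPM was 1.91 times as high (1.40 to 2.55) and LHX5 at 88.9 CPM 1.70 times (1.37 to 2.09), while the OTX1 ratio of 0.813 (0.470 to 1.31) had an interval that held 1. The LHX5-AS1 ratio of 0.712 (0.491 to 1.001) also had an interval that held 1.

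Transcripts of the library's other cells were also present in these 101 cells. POU5F1 stood at 19.2 CPM (11.9 to 29.4) beside 2.22 CPM in the cells labelled day 0 and 269 CPM in the cells labelled day 6 in clusters of their own library. CUZD1, named after its values were seen, stood at 41.2 CPM in 29.7% of the 101 cells, against 825 CPM in those own-cluster cells and 0.318 CPM labelled day 0. The 9 pluripotency markers summed to 1889 CPM (1808 to 1972) in the 101 cells, with NANOG alone at 0 UMIs. They summed to 1825 CPM labelled day 0 (TDGF1 at 0) and to 3605 CPM in the own-cluster cells labelled day 6. SOX2 and LIN28A made up most of the sum, at 683 and 997 CPM in the 101 cells and 600 and 1039 CPM labelled day 0. The part of these transcripts in the levels of the 7 genes was not tested. In the own-cluster cells labelled day 6 EMX2 stood at 0.375 CPM, DMRTA2 at 0.1999 CPM and VAX1 at 0.100 CPM.

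Of other forebrain transcripts, LHX2 stood at 351 CPM (4.26 times, 3.81 to 4.75), EMX2OS at 42.1 CPM (6.67 times, 4.72 to 9.27), and NR2F2 at 115 CPM (0.434 times, 0.361 to 0.518). The shifts of PAX6 (1.57 times), SIX3 (1.53 times) and OTX2 (1.32 times) were smaller.

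**Figure D4:**
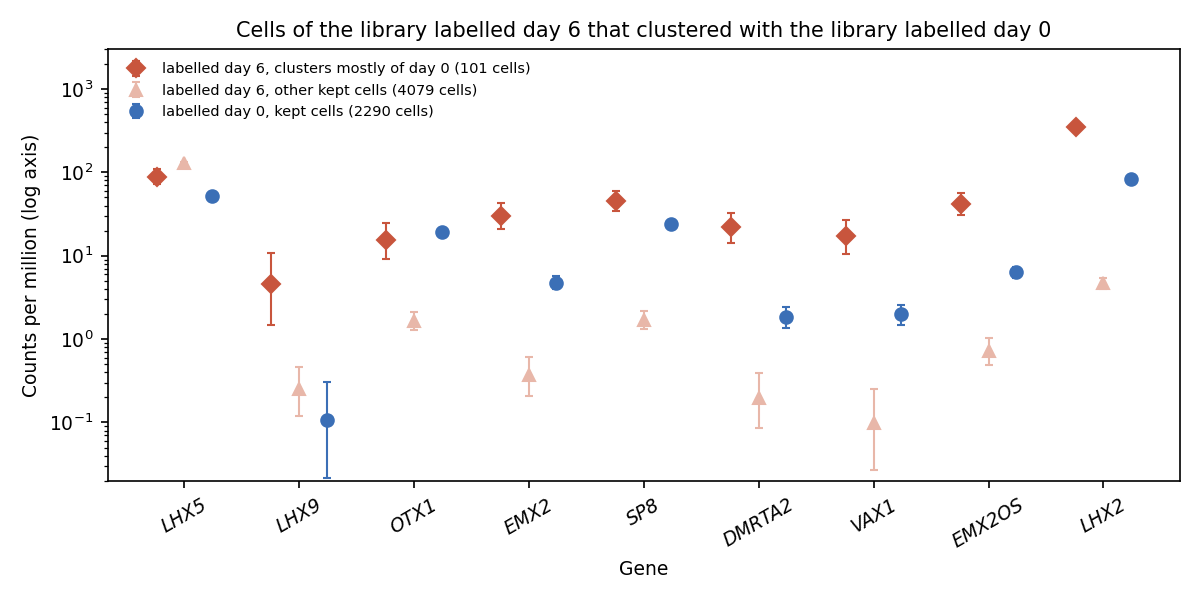
Level in CPM (log axis) of the 7 genes and of EMX2OS and LHX2 in the 101 cells labelled day 6 that fell in clusters mostly of the library labelled day 0 (diamonds), in the other 4079 cells labelled day 6 (triangles) and in all 2290 cells labelled day 0 (circles), with 95% Poisson intervals. EMX2, DMRTA2, VAX1 and LHX2 were higher in the 101 cells than in either other set, at 30.2, 22.0, 17.4 and 351 CPM, and OTX1 at 15.6 CPM was near its level labelled day 0.

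In the library labelled day 2, 34 cells fell in clusters mostly of that labelled day 0. EMX2 stood in these at 28.8 CPM (10.6 to 62.8) and DMRTA2 at 52.9 CPM (26.4 to 94.6) from 2 cells. POU5F1 stood in them at 101 CPM (62.5 to 154), against 1241 CPM in the cells labelled day 2 in their own clusters, and TDGF1 at 72.1 CPM, against 0 UMIs labelled day 0. The 9 pluripotency markers summed to 2047 CPM, with none at 0 UMIs, beside 4280 CPM in those cells labelled day 2. SOX2 at 923 CPM and LIN28A at 615 CPM made up most of the 2047 CPM. The part of the 9 markers in the result was not tested. OTX1 had 0 UMIs in the 34 cells, which allows up to 17.7 CPM. The 53 cells labelled day 6 in clusters of the library labelled day 2 had 9 UMIs of LHX5 and 0 of the other 6 genes.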

How the data were processed

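The authors deposited, for each of 3 libraries, whole-number counts per gene and barcode; they were taken as UMI counts, since inDrop uses UMIs. The submitters' processing notes name STAR and hg38, without versions; for the annotation, strand setting and barcode filter, nothing was given in the sources used here. No deposited barcode had fewer than 100 genes.

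Joining the features by symbol gave 31113 genes. Filters and sums are described above. Intervals are exact: Poisson for levels, conditional binomial for ratios and Clopper-Pearson for shares, at 95%. PCR duplicates and variation between cultures are not covered. With 1 library per label no test was made. Calls are at least 2-fold or at most 0.5 times among genes with at least 10 CPM in a library. Clusters came from scanpy 1.11.5 (2000 variable genes, 30 components, 15 neighbours, resolution 0.5). Scrublet called 5, 0 and 0 doublets, too few to have worked, so doublets were kept. Named genes are the 7 members, up to 4 genes of each list by highest CPM, the 3 nearest profiles and antisense partners; others are in counts of calls, and some listed genes are not reported here. GENCODE 29 gave coordinates. The members, the gene lists and the rules were chosen with earlier results of these data known. Clustering without the members was added after seeing the data. Ratios and calls were tested on simulated Poisson sums per library, with planted changes well past 2-fold. That simulation held no single cells, no UMIs clumped in 1 cell and no variation between cultures, so it checks the computation only. Alternatives were other scalings (edgeR 4.0.16, R 4.3.3), filters, thresholds and thinning, in Python 3.11.15.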

Additional observations from a re-analysis of the deposited data

Results flagged for a closer look

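Member transcripts were also present in barcodes outside the kept cells, above the level that 3 UMIs give there. Those under 1000 UMIs enter none of the ratios between libraries, and the cells above the mitochondrial limit enter only the ratios and counts computed with no such limit. In barcodes under 1000 UMIs, where 3 UMIs correspond to 1.43, 1.10 and 0.923 CPM under the labels day 0, 2 and 6, LHX5 stood at 57.2 CPM labelled day 0 and 134 CPM labelled day 6. OTX1 stood there at 21.4 and 2.46 CPM in the same 2 libraries, and SP8 at 20.5, 4.77 and 2.15 CPM in label order. EMX2 at 5.72 CPM and VAX1 at 1.91 CPM passed that level labelled day 0. These levels were 0.747 to 1.22 times those of the kept cells.

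In cells above 25% mitochondrial UMIs, 3 UMIs correspond to 1.31, 0.357 and 0.445 CPM. LHX5 stood at 38.8, 0.833 and 88.6 CPM in label order, OTX1 at 13.5, 1.43 and 0.889 CPM, SP8 at 13.5, 4.52 and 1.93 CPM, and EMX2 at 3.93, 0.476 and 0.741 CPM. VAX1 passed the level labelled day 2 only, at 0.833 CPM. LHX5, OTX1, SP8 and EMX2 were lower than in kept cells in the libraries labelled day 0 and day 6.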

How the results depend on the processing

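No paired analysis was possible because each label has 1 library, and no library could be left out. The count of members at least 2-fold higher, labelled day 2 against day 0, was 0 and became 1 (LHX9) with no minimum level. The count lower there, 3, became 1 at a minimum of 50 CPM and 6 with no minimum. Against day 2, the 1 higher labelled day 6 became 2 with no minimum. The 0 lower became 1 (SP8) when mitochondrial and ribosomal protein genes were left out of the totals, and 1 without the cells in clusters of another library, by either clustering. Against day 0, the 1 higher labelled day 6 became 2 with no minimum and 0 at 4-fold, and the 2 lower became 0 at 50 CPM and 5 with no minimum.

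Counts over all genes, higher and lower, moved most with the threshold. Labelled day 2 against day 0 they were 337 and 431 at 50 CPM, 6530 and 5598 with no minimum, and 417 and 230 at 4-fold. For day 6 against day 2 they were 344 and 200 at 50 CPM, 5059 and 6745 with no minimum, and 175 and 203 at 4-fold. For day 6 against day 0 they were 377 and 223, 6137 and 5432, and 296 and 144. With at most 10% mitochondrial UMIs, 1665 were lower labelled day 2 against day 0 and 1405 higher labelled day 6 against day 2. With no mitochondrial limit the median of all genes labelled day 2 over day 0 moved by -0.12 (log2).

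No called member ratio changed direction. Among the genes too low to call, the ratio of LHX9 labelled day 2 over day 0, and those of LHX9, DMRTA2 and VAX1 labelled day 6 over day 2, fell on the other side of 1 under at least 1 setting (LHX9 0.926, LHX9 2.62, DMRTA2 0.910, VAX1 0.255 at the farthest). Of 229 member ratios under other settings 197 stayed within the interval of the main value and 32 did not. Co-detection of LHX5 and OTX1 labelled day 0 was 0 times the expected after thinning, where few cells were expected; the cause was not tested. Shares moved with depth by construction. At these depths EMX2, DMRTA2, VAX1 and LHX9 rest on at most 135 UMIs in a library, and smaller differences were not detectable.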
